A study of Mus musculus with 8 samples.

Results

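The Ink4 and Cip/Kip inhibitors of cyclin-dependent kinases are encoded by 7 genes, 4 of the Ink4 family (Cdkn2a, Cdkn2b, Cdkn2c and Cdkn2d) and 3 of the Cip/Kip family (Cdkn1a, Cdkn1b and Cdkn1c). The members were all probe sets that the array annotation assigns to 1 of these symbols alone, which gave 9 of the 45101 probe sets on the array. Cdkn1a and Cdkn1b had 2 probe sets each and the other 5 genes had 1 each. That rule uses no signal values, though the genes were listed with earlier results of these data known.

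The study asked what forced expression of Bmi1, a subunit of Polycomb repressive complex 1, does in hepatoblasts that lack the Ink4a-Arf locus. Hepatoblasts are the fetal liver precursors of hepatocytes and bile duct cells. All 8 arrays came from Dlk-positive cells of Ink4a-Arf-null mouse embryos at embryonic day 14.5, enriched with magnetic beads and transduced after 12 to 18 h with EGFP (4 arrays, called control) or with Bmi1 (4 arrays). Both groups grew with 50 ng/ml hepatocyte growth factor and 20 ng/ml epidermal growth factor, were sorted by flow cytometry at day 28 of culture, and were hybridised after a 2-cycle amplification of RNA from 10000 cell equivalents. The null genotype is thus shared by controls and Bmi1 cells, and there is no wild-type group. The sources used here name no vector, promoter or extent of the deletion. Whether same-numbered cultures came from separate litters is not given either, so the p-values measure the spread between these arrays, 4 per group, which the series text calls independent experiments.

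Progression through G1 is driven by cyclin D with Cdk4 or Cdk6 and by cyclin E with Cdk2, which phosphorylate the Rb proteins and release E2F factors. Ink4 proteins bind Cdk4 and Cdk6 alone, whereas Cip/Kip proteins bind cyclin-kinase complexes more broadly, and block Cdk2 in particular. Cdkn2a makes p16Ink4a and, from a second promoter and another reading frame, p19Arf, which stabilises p53 by holding Mdm2. Repression of this locus by Polycomb complexes is the best known way in which Bmi1 sustains the growth of progenitor cells.

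Values are array signal intensities on a linear scale, and each difference is the mean of the arrays labelled Bmi1 less that of the controls, on a scale of log2(signal + 3.78). Of 18193 genes with a probe set of 1 symbol, limma was run on the 10916 whose mean level reached the 40th percentile, each through its brightest probe set, and 6 of the 7 inhibitors passed that filter. Replicates 1 and 2 (set A) stood apart from replicates 3 and 4 (set B) in both groups. The bacterial hybridisation control BioC 3' read 198 to 274 in set A and 97.0 to 119 in set B. Signal for the introduced gene went against the labels. In 4 of 4 pairs of same-numbered arrays the brighter Bmi1 probe set was lower on the Bmi1 side. It read 802, 395, 568 and 306 in controls 1 to 4 and 318, 273, 328 and 197 in the arrays labelled Bmi1. The dimmer probe set was also lower in each pair. Its readings were 402, 156, 220 and 85.4 in controls and 121, 107, 110 and 63.4 in the arrays labelled Bmi1. The sources used here do not place the probes on the introduced sequence, so directions below follow the labels. The hepatoblast and hepatocyte markers Alb, Afp, Ttr, Hnf4a, Krt8, Krt18, Dlk1, Apoa1 and Foxa2 were above background on all 8 arrays, as were 4 of 4 biliary, 7 of 10 fibroblast and stellate and 5 of 6 macrophage markers.

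No inhibitor passed the test between the groups. In limma 0 of the 6 tested members had an adjusted p under 0.05, against 18 of all 10916 tested genes (0.165%), and 0 of 6 had an unadjusted p under 0.05 against 7.81% of all genes. With the replicate number as a block the members again gave 0 of 6 at both levels, against 363 genes called (3.33%) and 18.0% at the unadjusted level. Cdkn2b, Cdkn1a and Cdkn1c had the higher mean in the arrays labelled Bmi1, and Cdkn2c, Cdkn2d and Cdkn1b the lower one. The log2 differences ran from -0.45 for Cdkn2c to 0.49 for Cdkn1c, with a median of 0.00 over the 6 members beside -0.03 over all tested genes. Their standard errors lay between 0.19 and 0.32, and the median over all genes was 0.24, so the members were measured about as precisely as the array as a whole. The groups overlapped for 6 of 6 members, whereas 5.33% of all tested genes had groups that did not overlap. No tested member moved the same way in 4 of 4 pairs, as 27.2% of all tested genes did.

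**Figure D1:**
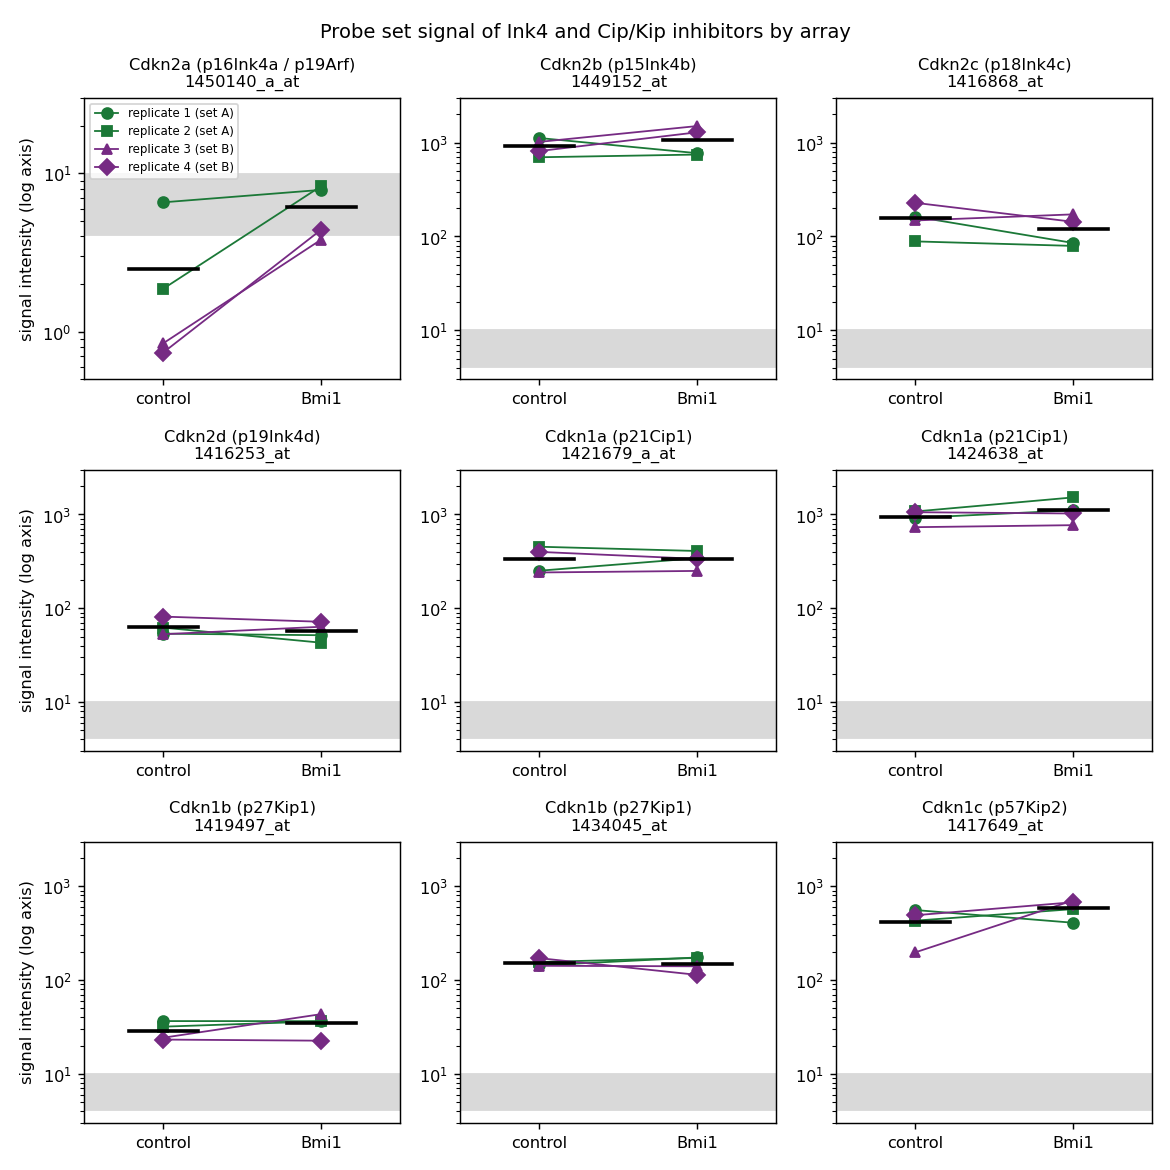
Signal intensity (log axis) of the 9 probe sets in the 4 control arrays and the 4 arrays labelled Bmi1, with lines joining arrays of the same replicate number and black bars at the group means. Green marks set A, purple set B, and the grey band spans the background levels of the 8 arrays (4.09 to 9.97). Only Cdkn2a (on its own axis range) lies in or under the band, and the groups overlap in every panel.

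Cdkn2a, the locus named in the genotype, was at background. For each array, the 95th percentile of 27 probe sets for Bacillus control transcripts served as background. The Cdkn2a probe set (1450140_a_at) read 6.57, 1.87, 0.844 and 0.738 in controls 1 to 4, and 7.87, 8.33, 3.82 and 4.42 in the arrays labelled Bmi1 1 to 4. Only the array labelled Bmi1 2 exceeded its background, which was 6.12 there. The higher value fell to the Bmi1 label in 4 of 4 pairs, but the groups overlapped through control 1. As the gene lay under the level filter it was tested only among all 45037 probe sets, of which limma called 4 (0.00888%). There it reached an adjusted p of 0.9999. The paired fit called 0.739% of the probe sets and gave it 0.498. No size of difference is given, since 4 of 4 controls and 3 of 4 arrays labelled Bmi1 had no signal above background. With the median of the same control probe sets as background, 3 controls and 0 arrays labelled Bmi1 were at background. The sources used here do not say whether its probes lie inside the deleted part, so the reading checks nothing about the genotype.

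Cdkn2b, which lies next to Cdkn2a and makes p15Ink4b, was well above background on all 8 arrays. It is a known target of TGF-beta signalling and of Polycomb complexes. Its probe set read 1121, 699, 1020.04 and 814 in controls 1 to 4 and 772, 747, 1505 and 1291 in the arrays labelled Bmi1 1 to 4. The 2 highest readings were Bmi1 3 and Bmi1 4, while Bmi1 1 and Bmi1 2 lay within the range of the controls. The log2 difference was 0.12 (SE 0.25, limma adjusted p = 0.984), and its 95% interval ran from 1.35-fold lower to 1.60-fold higher. By pair the differences were -0.63, 0.01, 0.47 and 0.63. The mean was -0.31 in set A and 0.55 in set B, and this contrast between the sets had an unadjusted p of 0.0377 and an adjusted p of 0.9995 in limma. The same interaction called 0 of 10916 genes (0.0%), with 2.76% under an unadjusted p of 0.05.

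The start-site windows of Cdkn2a and Cdkn2b are shown because a single locus here held a gene at background beside one that was clearly read. They are RefSeq sequences of build GRCm38.p6, 250 bases before to 50 after each start, all on the minus strand and written 5′ to 3′. Capitals mark GGGCGG, the core of the GC box, searched on both strands (GGGCGG or CCGCCC). The first 2 lines are the upstream and downstream starts of Cdkn2a at chr4:89294570-89294869 and chr4:89282143-89282442, and the third is Cdkn2b at chr4:89310983-89311282.
Cdkn2a upstream start: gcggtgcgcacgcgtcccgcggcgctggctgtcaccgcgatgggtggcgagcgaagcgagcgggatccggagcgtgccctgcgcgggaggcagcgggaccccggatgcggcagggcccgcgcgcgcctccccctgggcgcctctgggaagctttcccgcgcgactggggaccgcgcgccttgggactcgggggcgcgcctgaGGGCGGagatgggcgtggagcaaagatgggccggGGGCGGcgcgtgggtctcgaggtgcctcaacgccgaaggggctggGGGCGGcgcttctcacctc
Cdkn2a downstream start: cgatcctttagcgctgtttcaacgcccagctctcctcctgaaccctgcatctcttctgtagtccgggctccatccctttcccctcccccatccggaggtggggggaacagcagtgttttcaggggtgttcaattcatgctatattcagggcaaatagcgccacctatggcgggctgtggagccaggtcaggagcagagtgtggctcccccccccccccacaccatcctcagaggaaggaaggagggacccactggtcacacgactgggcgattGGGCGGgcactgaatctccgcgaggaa
Cdkn2b: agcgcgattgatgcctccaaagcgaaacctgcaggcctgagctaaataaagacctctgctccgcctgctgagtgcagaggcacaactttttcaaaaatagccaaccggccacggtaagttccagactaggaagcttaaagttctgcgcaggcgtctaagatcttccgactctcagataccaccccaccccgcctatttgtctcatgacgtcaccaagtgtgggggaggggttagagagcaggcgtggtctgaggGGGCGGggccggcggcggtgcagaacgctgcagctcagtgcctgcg

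The upstream Cdkn2a window held 3 GC boxes and 45 CG dinucleotides, the downstream one 1 and 12, and the Cdkn2b window 1 and 18. Over all 32851 windows in RefSeq's list, 35.7% held a GC box and the median count of CG was 7. Of the 9 windows listed for 6 of the 7 members, 7 held a GC box. None of the 9 held TATAAA (or TTTATA), a motif found in 13.6% of all windows.

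Cdkn2c and Cdkn2d, the Ink4 genes expressed mainly during development and differentiation, had a lower mean in the arrays labelled Bmi1, and neither passed. Cdkn2c makes p18Ink4c and is a known E2F target. It read 163, 88.6, 148 and 228 in controls 1 to 4 and 85.2, 79.3, 172 and 143 in the arrays labelled Bmi1. Control 4 was highest, control 2 stood with the low Bmi1 arrays, and the groups overlapped. The log2 difference was -0.45 (SE 0.32, limma adjusted p = 0.890), with an interval from 2.23-fold lower to 1.20-fold higher, so this is the one tested member for which a 2-fold fall lay inside the interval. It was lower in 3 of 4 pairs, by -1.0003, -0.24 and -0.69 in pairs 1, 2 and 4, and higher in pair 3 by 0.13. In limma with the replicate block its adjusted p was 0.286, the smallest of the members there. That interval, from 1.88-fold lower to 1.01-fold higher, left out a 2-fold fall.

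Cdkn2d makes p19Ink4d, which shares no sequence with p19Arf despite the name. It read 53.6, 62.2, 52.9 and 81.5 in controls 1 to 4 and 51.6, 42.9, 63.5 and 71.8 in the arrays labelled Bmi1. Control 4 and Bmi1 4 were the highest of their groups, and the log2 difference was -0.19 (SE 0.22, limma adjusted p = 0.954). Its interval ran from 1.60-fold lower to 1.22-fold higher, and 3 of 4 pairs were lower.

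**Figure D2:**
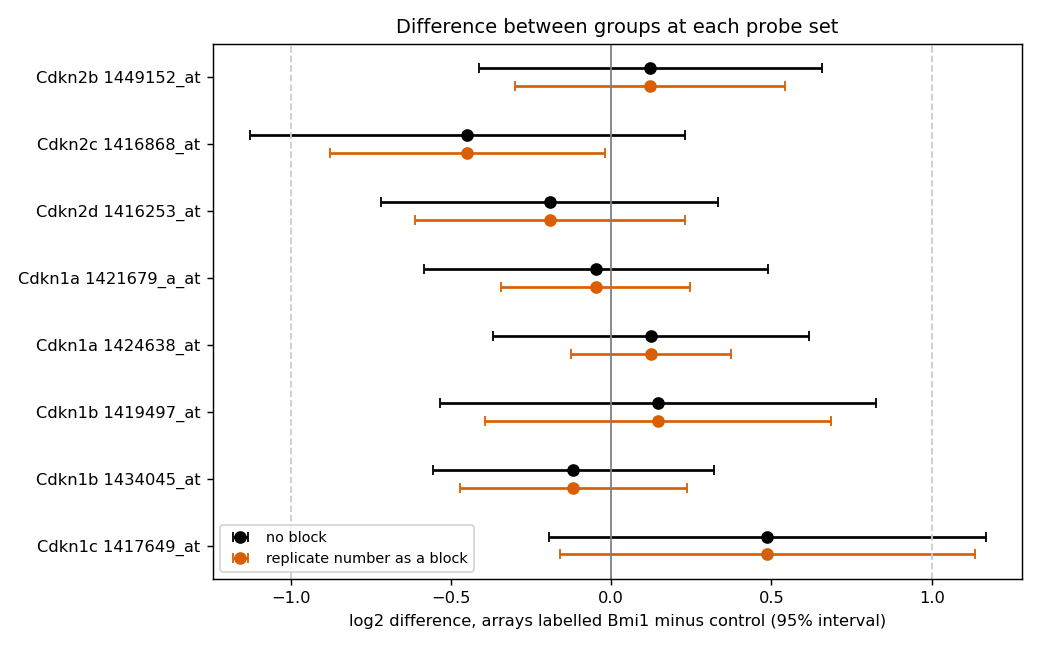
Log2 difference between arrays labelled Bmi1 and control at the 8 probe sets above background (horizontal axis, Cdkn2a left out), with 95% intervals from limma over all probe sets, without a block (black) and with the replicate number as a block (orange). Dashed lines mark 2-fold. Every black interval includes 0, and with the block that of Cdkn2c alone does not (unadjusted p = 0.0417, adjusted p = 0.448).

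Cdkn1a makes p21Cip1, the main cell cycle target of p53, which also binds PCNA. Its brighter probe set (1424638_at) read 920.4, 1076, 732 and 1057 in controls 1 to 4 and 1109, 1522, 769 and 1024 in the arrays labelled Bmi1 1 to 4. The array labelled Bmi1 2 stood above all others, and the remaining 3 lay close to the control range. The log2 difference was 0.12 (SE 0.23, limma adjusted p = 0.976), with an interval from 1.31-fold lower to 1.55-fold higher. The other Cdkn1a probe set (1421679_a_at) read 251, 453, 241 and 399 in controls and 342, 408, 250.2 and 336 in the arrays labelled Bmi1, which differ by -0.05 on the log2 scale (SE 0.24, adjusted p = 0.9999 over all probe sets). The probe sets thus differed in sign, and only in pair 2 did they point opposite ways by more than 0.2 each (0.41 and -0.23). Both were low on the arrays of replicate 3 in each group.

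The start-site windows of Cdkn1a are shown because the p53 element of this gene is the textbook example of its kind and the p53 targets are compared below. RefSeq places 2 starts on the plus strand of chromosome 17 in GRCm38.p6, at chr17:29090729-29091028 and chr17:29093519-29093818. In the first line capitals mark a match to the p53 consensus of 2 adjoining half-sites, and in the second they mark GC boxes.
Cdkn1a upstream start: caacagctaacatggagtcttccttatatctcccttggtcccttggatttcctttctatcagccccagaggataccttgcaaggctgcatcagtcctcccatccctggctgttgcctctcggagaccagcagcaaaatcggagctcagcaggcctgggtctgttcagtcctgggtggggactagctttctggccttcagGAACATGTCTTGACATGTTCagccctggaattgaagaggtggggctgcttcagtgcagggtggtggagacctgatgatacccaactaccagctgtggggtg
Cdkn1a downstream start: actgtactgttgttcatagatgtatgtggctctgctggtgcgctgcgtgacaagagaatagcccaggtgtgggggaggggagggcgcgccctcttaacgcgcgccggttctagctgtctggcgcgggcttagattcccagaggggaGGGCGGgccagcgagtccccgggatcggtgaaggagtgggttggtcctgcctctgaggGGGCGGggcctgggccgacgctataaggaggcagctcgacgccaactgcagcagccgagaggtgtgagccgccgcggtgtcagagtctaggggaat

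The marked p53 match of 20 bases begins 51 bases before the upstream start and departs from the consensus at 1 base. It was searched with no spacer and at most 1 mismatch, and 0.0883% of all windows held such a match, as did 1 of the 9 windows of the members. The upstream window held 2 CG dinucleotides and 0 GC boxes, and the downstream one 23 and 2. The annotation does not say which start the probe sets report.

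Cdkn1b makes p27Kip1, which holds cells in quiescence and is controlled largely through degradation of the protein, a step that arrays do not read. Its brighter probe set (1434045_at) read 143, 156, 142 and 171 in controls and 174, 172, 140.2 and 114 in the arrays labelled Bmi1 1 to 4. The controls spanned a narrow range, with Bmi1 1 and Bmi1 2 just above it and Bmi1 4 below. The log2 difference was -0.12 (SE 0.19, limma adjusted p = 0.973), and the interval ran from 1.46-fold lower to 1.24-fold higher. The dimmer probe set (1419497_at) read 36.5, 31.9, 24.3 and 23.2 in controls and 36.5, 36.3, 43.4 and 22.6 in the arrays labelled Bmi1, with a log2 difference of 0.15 (SE 0.31, adjusted p = 0.9999 over all probe sets). The 2 probe sets of this gene differed in sign as well, and pair 3 was where they parted most (0.66 and -0.10).

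Cdkn1c makes p57Kip2, an imprinted inhibitor expressed from the maternal allele, whose loss causes overgrowth of tissues. It read 558, 430.1, 198 and 491 in controls 1 to 4 and 408, 571, 708 and 676 in the arrays labelled Bmi1 1 to 4. The arrays labelled Bmi1 2, 3 and 4 lay above all controls and Bmi1 1 lay below 3 of them, so the groups overlapped. Of the tested members Cdkn1c varied most between arrays, with a highest reading 3.58 times the lowest, against 1.53 times for the Cdkn1b probe set tested. The log2 difference was 0.49 (SE 0.32, limma adjusted p = 0.868), and the interval ran from 1.18-fold lower to 2.32-fold higher, the only one of 6 to include a 2-fold rise. By pair it was -0.54, 0.32, 1.74 and 0.43. Control 3, the lowest array, sets the largest of these, and leaving it out gave 0.15. The mean was -0.11 in set A and 1.08 in set B, with an interaction adjusted p of 0.9995 (unadjusted p = 0.0565).

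**Figure D3:**
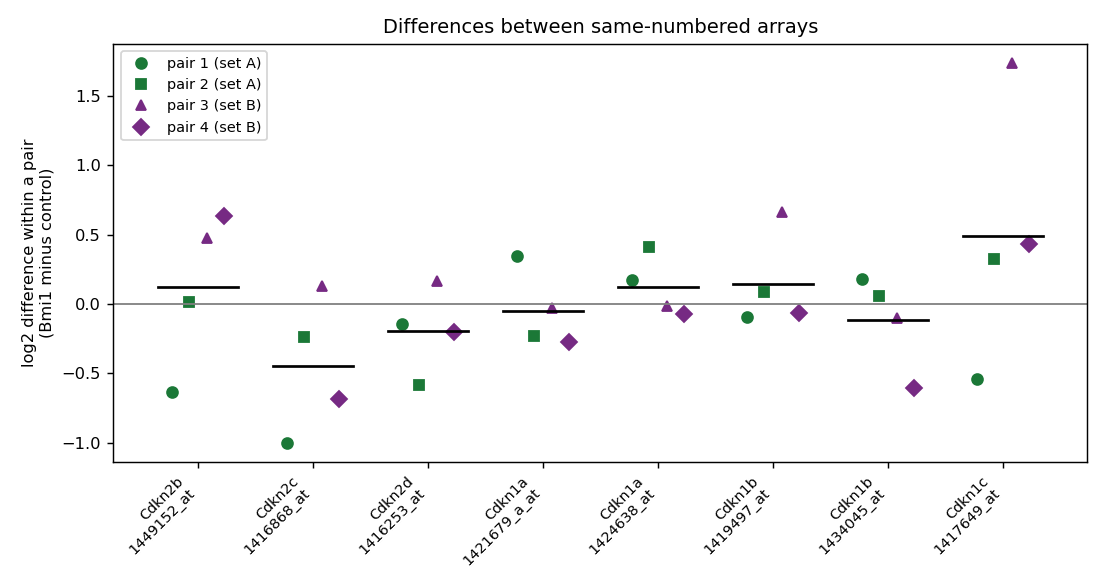
Log2 difference within each pair of same-numbered arrays (vertical axis, Bmi1 minus control) for the 8 probe sets above background, with a black bar at the mean of the 4 pairs. Green marks the pairs of set A and purple those of set B. Cdkn2b and Cdkn1c lie lowest in pair 1 (-0.63 and -0.54) and higher in set B, and no probe set shown lies on one side of 0 in 4 of 4 pairs.

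The level of each tested inhibitor was also compared between the sets of arrays. Cdkn2c was higher in set B by 0.65 (SE 0.23) and Cdkn1a was lower there by 0.46 (SE 0.16) on the log2 scale, with limma adjusted p = 0.0639 and 0.0689. Neither passed, in a comparison that called 24.3% of all tested genes. For Cdkn1b the set difference was -0.29, for Cdkn2b 0.36, for Cdkn2d 0.23 and for Cdkn1c -0.16, with adjusted p from 0.197 to 0.736. The labels do not say how the sets differ in handling.

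For each tested member the 2 genes with the nearest profile were found by the root mean square difference over the 8 arrays, after each gene was centred on its own mean of log2 values, among 10915 other genes. Cdkn1a lay closest to Ankrd46 (0.08) and Idh2 (0.09). Cdkn1c lay closest to the receptor genes Notch3 (0.15) and Fzd2 (0.19), against a spread of Cdkn1c about its own mean of 0.53. Cdkn2b lay closest to the splicing factor gene Srsf2 (0.14) and to Srrm2 (0.16), and Cdkn2c to Apoo and Trim71 (0.24 each). Cdkn2d lay closest to Traf3ip2 (0.08) and Kin (0.10), and Cdkn1b to Hspa14 (0.10) and Gprc5b (0.11). None of these 12 genes passed the limma test between the groups. This is no separate result, as they were picked for likeness to members that did not pass. No member was among the 2 nearest of another member.

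The kinases and cyclins that the inhibitors act on were compared as a list of 17 tested genes. Of these 10 lay above 0 and 7 below (median 0.01 on the log2 scale), beside 45.7% of all tested genes above 0. The split was 14 and 3 with centring on all probe sets and 8 and 9 with array weights. Over all tested genes, 0.165% were called without the block and 3.33% with it. Ccnd1, cyclin D1, is the partner of Cdk4 and Cdk6. It read 532, 574, 956 and 881 in controls 1 to 4 and 1164, 1283, 2245 and 1588 in the arrays labelled Bmi1. The lowest Bmi1 array was above the highest control, and the difference was close in every pair (1.03, 1.07, 1.14 and 0.82). Its log2 difference was 1.02 (SE 0.23), and limma gave an adjusted p of 0.156, or 0.00605 once arrays were paired, so it rose in the paired fit only. Cdk4 was 0.25 (SE 0.21, adjusted p = 0.926), Cdk6 -0.07 (SE 0.14, 0.985) and Cdk2 0.01 (SE 0.19, 0.997). Over the 13 tested Rb and E2F genes the median was 0.06, with 9 higher and 4 lower and 0 called in either fit. That split was 12 and 1 with centring on all probe sets and 5 and 8 with array weights. The Rb and E2F genes with the smallest p in the paired fit were Tfdp2, an E2F partner (0.43, SE 0.29, limma adjusted p = 0.866), and E2f5 (-0.87, SE 0.71, 0.925).

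Genes that act on the inhibitors themselves were compared next, beside 0.165% of all tested genes called without the block and 3.33% with it. In the list of turnover factors, which holds the ubiquitin ligase parts that degrade p27Kip1 and p21Cip1, 7 of 17 tested genes were higher and 10 lower (median -0.05) and 0 were called in either fit. This split followed the scaling, with 13 higher and 4 lower without centring, 14 and 3 with centring on all probe sets and 12 and 5 with quantile normalisation. So did that of all 10916 tested genes, of which 4988 were higher in the main fit. The number was 6300 without centring, 7295 with centring on all probe sets and 6059 with quantile normalisation. Skp2, the F-box protein that targets p27Kip1, was at -0.46 (SE 0.38, limma adjusted p = 0.927), and Cdc20 at 0.36 (SE 0.37, 0.945). Among 23 tested regulators of the Ink4 locus, Polycomb subunits for the most part, 17 were higher and 6 lower (median 0.15). With probe sets averaged 12 of 21 were higher (median 0.03). Bmi1 itself was the 1 gene of the 23 that passed, lower in the paired fit only (-0.89, SE 0.32). Its limma adjusted p was 0.0248 with the replicate block and 0.461 in the unpaired fit. Of 20 tested Cip/Kip regulators 11 were higher and 9 lower (median 0.03), and 0 were called in either fit. Klf6, an activator of Cdkn1a, was lower in 4 of 4 pairs (-0.49, SE 0.44, adjusted p = 0.943), and Men1, which maintains Cdkn1b and Cdkn2c transcription, was higher in 4 of 4 (0.49, SE 0.31, 0.857). Both were named for the smallest p in the paired fit, a choice that favours genes whose pairs move the same way. Of all tested genes 27.2% moved the same way in 4 of 4 pairs.

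Beside Cdkn1a, the other p53 targets were compared. Of all tested genes 45.7% were higher, and of the 22 tested p53 targets 9 were higher and 13 lower (median -0.05). The split was 12 and 10 without centring or with quantile normalisation, 15 and 7 with centring on all probe sets and 14 and 8 with array weights (median 0.11), and 4 and 18 within set B. Gadd45a, a growth arrest gene that also binds PCNA, fell in the paired fit only (-1.07, SE 0.76, limma adjusted p = 0.895, and 0.0162 with the block). It read 511.5, 510.9, 106 and 142 in controls 1 to 4 and 232, 355, 51.1 and 54.7 in the arrays labelled Bmi1. The spread between sets A and B exceeded that between the groups, while each pair was lower by 0.61 to 1.35. Among 9 tested senescence-associated genes 3 were higher and 6 lower (median -0.15). In either fit 0 of them were called, beside 0.165% of all tested genes without the block and 3.33% with it. Cxcl1 was at -1.01 (SE 0.83, limma adjusted p = 0.926) and Plat, the tissue plasminogen activator gene, at -0.41 (SE 0.27, 0.857).

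Proliferation genes, which the inhibitors restrain, had a positive difference in 21 of 21 tested genes (median 0.23), beside 45.7% of all tested genes. In limma 0 of them passed with or without the block, beside 3.33% and 0.165% of all tested genes. Top2a, the topoisomerase of dividing cells, was at 0.58 (SE 0.35, adjusted p = 0.830, and 0.0796 with the block), and the spindle checkpoint gene Bub1b at 0.60 (SE 0.42, 0.890 and 0.207). The count of positive differences depended on single arrays. Without control 2 it was 14 of 21 (median 0.08), within set B 14 of 21 (0.11) and with array weights 11 of 21 (0.00). Without control 1 it was 19 of 21.

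**Figure D4:**
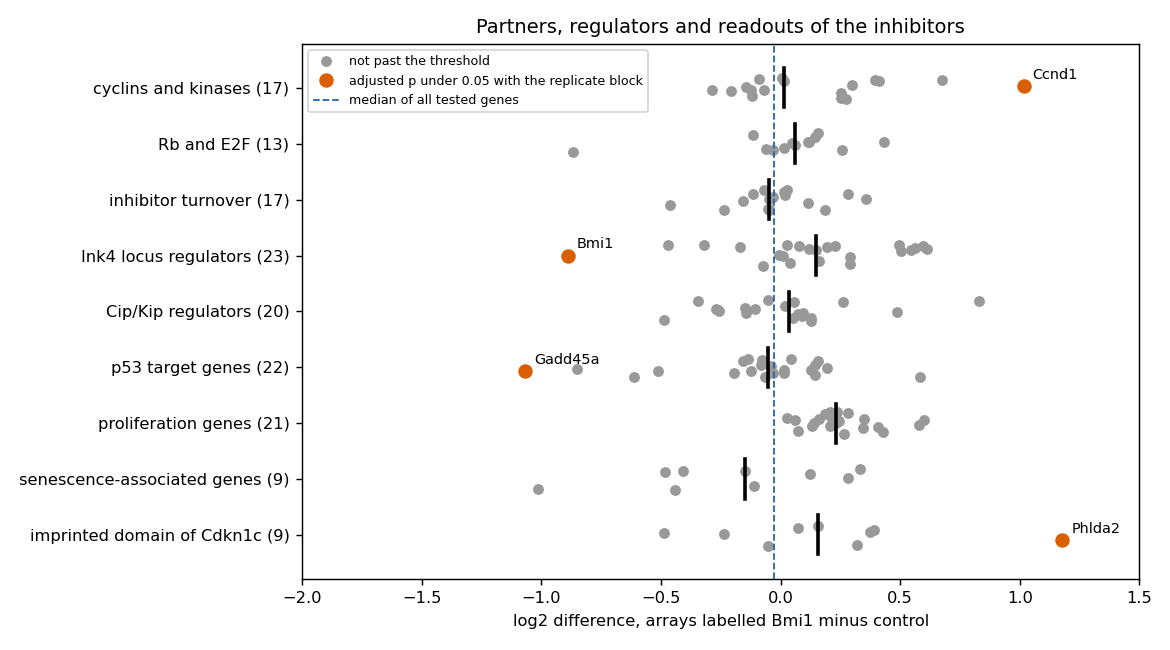
Log2 difference (horizontal axis) of each tested gene in the 9 lists of partners, regulators and readouts, with the number tested in brackets, a black bar at each list's median and a dashed line at the median of all tested genes (-0.03). Orange points, 4 of 150 distinct genes, passed limma with the replicate block, as did 3.33% of all tested genes. These are Ccnd1 and Phlda2 (higher) and Bmi1 and Gadd45a (lower). Proliferation genes are the only list with every point above 0.

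Genes that lie beside the inhibitors in the RefSeq order were read as well, up to 2 tested genes on each side. Of 24 such neighbours 0 passed in limma without the block and 1 with it (Phlda2, below). Over all tested genes 0.165% passed without the block and 3.33% with it. Unadjusted p-values under 0.05 came from 2 of 24, beside 7.81% of all tested genes, with 15 higher and 9 lower and a median of 0.03. Mtap, the methylthioadenosine phosphorylase gene beside Cdkn2a, read 1229.5, 1035, 1053 and 1130.4 in controls and 1210.5, 1129, 1029 and 1019 in the arrays labelled Bmi1. The ranges nearly coincide, and the groups differed by -0.09 on the log2 scale (SE 0.13, limma adjusted p = 0.967). The next tested genes on the other side of Cdkn2a, past Cdkn2b and 4 named coding genes that were not tested, were Tusc1 and then Caap1. Tusc1 read 34.4 to 215 in controls and 33.1 to 94.0 in the arrays labelled Bmi1. Its log2 difference was -0.75 (SE 0.52, limma adjusted p = 0.890), and that of Caap1 was -0.06 (SE 0.18, 0.985). Klhl9, separated from Cdkn2a by Mtap and 8 named coding genes that were not tested, read 449 to 596 in controls and 614 to 709 in the arrays labelled Bmi1 (0.28, SE 0.14, 0.733). Crebl2, near Cdkn1b, read 74.1 to 80.3 and 45.5 to 61.7 (-0.61, SE 0.18, 0.302), and Rnf11, beside Cdkn2c, read 485 to 537 and 411 to 469 (-0.30, SE 0.13, 0.606). Klhl9, Crebl2 and Rnf11 were the 3 of 24 neighbours whose groups did not overlap, beside 5.33% of all tested genes. They were singled out after their values were seen.

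Cdkn1c lies in an imprinted domain of which 9 listed genes were tested, 6 higher and 3 lower (median 0.16). Phlda2, an imprinted growth inhibitor of the placenta that is also expressed from the maternal allele, read 20.2, 53.5, 67.3 and 166 in controls 1 to 4 and 77.1, 84.8, 246 and 293 in the arrays labelled Bmi1. It was higher in 4 of 4 pairs, by 1.66, 0.54, 1.73 and 0.78, though the groups overlapped. It rose in the paired fit only (1.18, SE 0.59, limma adjusted p = 0.735, and 0.0386 with the block). The paired fit called 3.33% of all tested genes, and 27.2% of them moved the same way in 4 of 4 pairs. Slc22a18, between Phlda2 and Cdkn1c, was at 0.32 (SE 0.31, adjusted p = 0.943), and on the other side Cd81 was at -0.05 (SE 0.16, 0.985) and Tssc4 at 0.07 (SE 0.23, 0.985).

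Markers of other cells were read on the same arrays. In limma 0 genes of these lists passed without the block. With it 1 of 4 tested biliary, 1 of 9 fibroblast and stellate, 1 of 4 mesothelial and 1 of 1 endothelial genes did. The same fit called 3.33% of all tested genes. Only 1 of the 7 endothelial genes reached the level filter. The sums below, except the biliary one, include genes that this filter left out. The summed signal of 4 biliary markers was 1441 to 2457 in controls and 2483 to 3085 in the arrays labelled Bmi1, and that of 7 endothelial markers 114 to 233 and 239.8 to 350.2, with Pecam1 and Tek at background on all 8 arrays. For 10 fibroblast and stellate markers it was 4818 to 14846 and 3587 to 7762, and for 6 mesothelial markers 141 to 658 and 52.5 to 213. The 6 macrophage markers summed to 532 to 2796 and 665 to 2476, and the 4 erythroid ones to 15.4 to 77.4 and 16.1 to 25.3, with Alas2 at background throughout. Control 1 had a Gapdh 3' over 5' ratio of 3.10 against 1.65 to 1.96 on the other arrays. Their part in the values above was not tested, and in bulk samples fewer cells of a type and less RNA per cell cannot be told apart.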

How the data were processed

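Expression was measured on 8 Affymetrix mouse arrays, grouped by sample title. The deposited table holds linear intensities, 1 per probe set and array. After trimming 2% at each end every array has a mean of 100, as a scaling by the authors would leave it. The sources used here name no software. Gene symbols are those of the platform annotation, brought up to date with RefSeq's table for GRCm38.p6. Of 45101 probe sets, 64 were controls, 34945 had 1 symbol, 932 several and 9160 none here. No array was a copy of another.

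Values were taken as log2(signal + 3.78), which understates folds of dim genes. The added constant is the overall median over 4. Arrays were centred on the median of the tested genes. Each gene entered with its probe set of highest mean. limma 3.58.1 in R 4.3.3 (lmFit, eBayes with an intensity trend) was run two-sided with Benjamini-Hochberg adjustment over all tested genes and a threshold of 0.05. A second fit took all 45037 probe sets that are not controls. The models were run on simulated data with independent arrays and large changes. This does not check the pairing or differences as small as those of the members. The number of arrays limits the precision.

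Control and Bmi1 arrays sharing a number deviated together from their groups (correlations of 0.53, 0.49, 0.50 and 0.68), and the numbers were therefore taken as pairs. Each set of arrays holds both groups, and the split between sets A and B adds to these correlations. Unlike numbers of set A correlated too, at 0.48 (control 1 with Bmi1 2) and 0.12 (control 2 with Bmi1 1). In set B they did so at 0.36 (control 4 with Bmi1 3) and 0.28 (control 3 with Bmi1 4). Numbered pairs are thus only partly told apart from sets, and the calls of the paired fit rest on the pairs. The fit without the block is the main one.

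The members and gene lists were chosen with earlier results of these data known. Named genes were all members, Bmi1, Cdk4, Cdk6, Cdk2 and Ccnd1, from each list up to 4 genes called in either fit (or the 2 with the smallest p with the block), the neighbours, and the 2 nearest profiles per member. Neighbours are given in full only where they lie beside Cdkn2a or Cdkn1c or their groups did not overlap. Other settings varied the centring, the pseudocount, the level filter, the summary of probe sets, the model and the arrays used.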

Additional observations from a re-analysis of the deposited data

How the results depend on the processing

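Over 179 values of the 6 tested members under 30 other settings, 0 passed in limma (lowest adjusted p 0.19), and the replicate block changed no member's call. Cdkn2c and Cdkn2d kept their direction in all of theirs, but not their size. Cdkn2c was -0.68 without control 2, -0.27 without control 4 and -0.29 without Bmi1 2, and Cdkn2d was -0.090 without control 4, -0.29 without Bmi1 4 and -0.076 without Bmi1 2. The sign turned in 13 values. Cdkn2b was -0.31 within set A, -0.043 without the array labelled Bmi1 3 and -0.049 with the replicate block without pair 4. Cdkn1a was -0.044 within set B, -0.0068 without control 3 and -0.048 without Bmi1 2. Cdkn1b was 0.015 with all probe sets as the centre, with or without the replicate block, 0.052 with probe sets averaged, 0.12 within set A, 0.015 without Bmi1 4 and 0.045 with the block without pair 4. Cdkn1c was -0.11 within set A. With 1 array left out, the difference of Cdkn2b ran from -0.043 to 0.27, and with a pair left out it reached 0.37. Over both, Cdkn1a ran from -0.048 to 0.30 and Cdkn1b from -0.22 to 0.045. The cause was not tested. The median of all tested genes went from -0.03 to 0.11 when arrays were centred on all probe sets.

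The number of all genes called was 18, and 28 with no centring, 7 with quantile normalisation, 30 with 4 times the pseudocount, 37 with array weights, 198 with the sets as a block and 363 with the replicate block. With the replicate block it was 409 with no centring, 477 with centring on all probe sets and 333 with quantile normalisation. It was 0 with the 60th percentile filter and within set A or set B, where fewer genes or arrays entered. With 1 array or pair left out it ran from 0 (without control 2, control 3, Bmi1 2 or Bmi1 3) to 20 (without control 4) unpaired, and with the block it was 187, 140, 94 and 207 without pairs 1 to 4. Over all probe sets 333 were called with the replicate block and 4 without. Without the block, 12 genes were called higher and 6 lower. The split was 6 and 1 with quantile normalisation and 6 and 7 with centring on all probe sets. With the replicate block it was 149 higher and 214 lower, 222 and 187 with no centring, 280 and 197 with centring on all probe sets and 158 and 175 with quantile normalisation. Of the 150 related genes tested, 0 were called without a block, 2 with the sets as a block and 4 with the replicate block. The fit with the replicate block called 3.33% of all tested genes. It called 4 related genes under its 3 other centrings as well. With a pair left out the block called 1 to 3. At the median of the control probe sets as background, 0 arrays labelled Bmi1 and 3 controls had Cdkn2a at background. No group of 4 arrays held a far value by the test of Dixon in the 18 groups of member probe sets, where chance gives about 0.9.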
